A study of Mus musculus with 3 samples.

Results

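The choroid plexus epithelium genes described here are 33 genes known as markers, transporters, channels and keratins of the cell sheet that covers the choroid plexus. They were chosen by name, with earlier results of these data known, so their counts beside those of all genes are descriptions. A probe was assigned to a member where the gene name in the array files was that of the member. Of the 33 genes, 32 had a probe and 31 were measured, among 16783 genes measured on the arrays. Mfrp, a frizzled-related membrane protein, had no probe under its name. The only probe of Cldn1, a claudin of tight junctions, was above background in Cy3 on 0 and in Cy5 on 1 of the 3 arrays, and it was left out.

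The samples were hippocampus RNA of male mice at postnatal day 120, with no treatment named. Sons of mothers bred at 15 to 18 months formed the older group and sons of mothers bred at 3 months the young group, and all fathers were 3 months old. A pool held equal amounts of RNA from 3 sons, and the 6 pools were read as 3 pairs, each on a two-colour Agilent array with probes of 60 bases. The labels give no strain and do not say whether pools share litters, so p-values measure the spread between these pools. The older pool carried Cy3 and the young pool Cy5 on every array, so that dye and group cannot be told apart.

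The choroid plexus is a frond of vascular tissue in the brain ventricles. Its epithelium secretes cerebrospinal fluid by moving ions and water from blood to ventricle, and it makes transthyretin, the carrier of thyroid hormone in that fluid. The plexus of the lateral ventricle lies along the fimbria of the hippocampus and is not itself part of it. In pooled tissue RNA, fewer epithelial cells and less RNA per cell cannot be told apart.

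Most of the set was lower in the older pools, by amounts that differed widely between the arrays. Values are log2 ratios of older over young, so that -1 is a level lower by a factor of 2, and each gene is represented by its probe with the highest average intensity. Of 31 measured members 11 fell, 0 rose and 20 did not pass (limma, Benjamini-Hochberg adjusted p under 0.05 over all probes), against 12.3% of all genes lower and 7.11% higher (10.7% and 7.92% of all probes). At an unadjusted limma p under 0.05, 28 members were lower and 0 higher, against 24.6% of all genes lower. The median over the members was -0.67, -1.42 and -0.33 on arrays 1, 2 and 3, and -0.71 for the mean of the arrays. For all genes the median was -0.03 on each of the 3 arrays. Of the 31 members 29 were negative on all 3 arrays, against 36.8% of all genes, and the exceptions were Kcne2 and Slco1a5.

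The count of 11 depends on the arrays used, on the background and dye settings and on the variance model. It was 0 without replicate 3, 3 without replicate 1 and 13 without replicate 2, where 0, 1906 and 376 of all 27631 probes were lower, against 2946 with all arrays. It was 0 from Agilent's processed signals, 3 with a background offset of 16 in place of 50, 3 with a variance trend and 28 under median centring in place of a dye curve, where 1452, 2142, 2565 and 17010 probes were lower. The median over the members stayed between -0.46 and -1.15 under those settings.

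**Figure D1:**
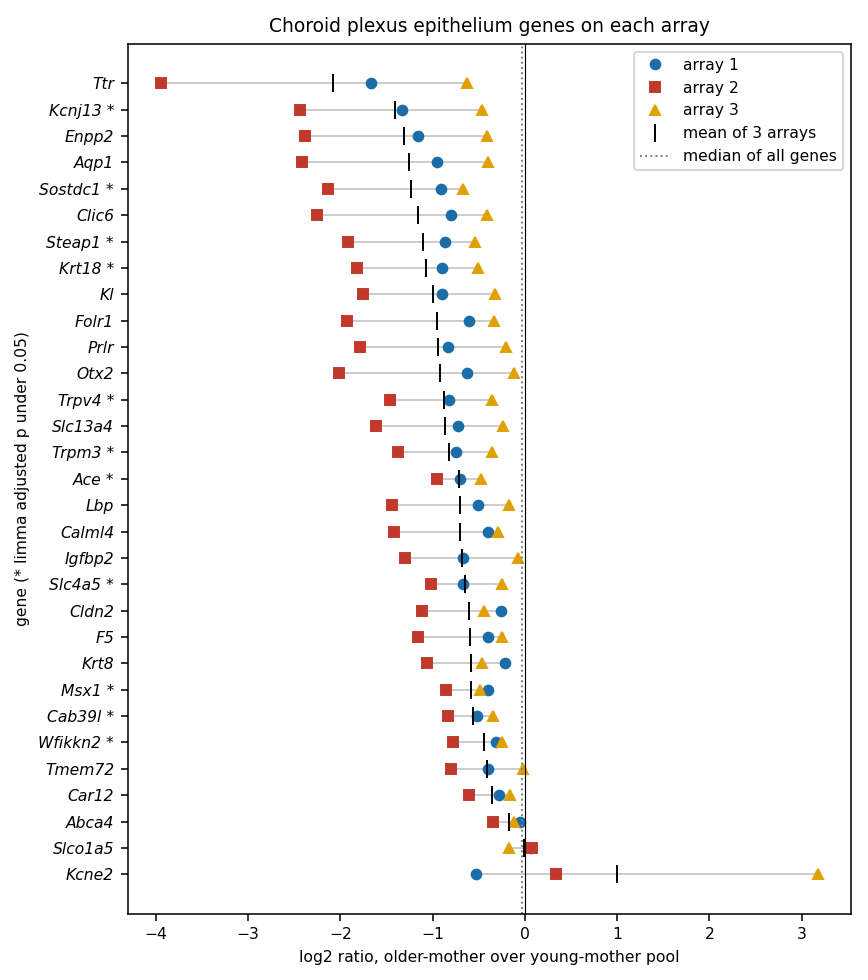
The log2 ratio of older over young (x axis) is plotted for each of the 31 measured genes (rows) on arrays 1, 2 and 3 (points), with their mean (bar) and the median of all genes (dotted line). Array 2 lies farthest to the left for 29 of the 31 genes, Ttr reaches -3.95 there, and Kcne2 at 3.18 on array 3 stands alone on the far right.

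Among the 8 secreted proteins, 2 fell and 6 did not pass, and the list median was -0.85. Ttr, which encodes transthyretin and is the textbook marker of this epithelium, had log2 levels of 14.45, 12.72 and 15.89 in older pools 1, 2 and 3 and of 16.12, 16.67 and 16.52 in the young pools. All older pools lay below all young pools, and older pool 3 came close to them. The log2 ratios of Ttr were -1.67, -3.95 and -0.63, which is 3.19-fold, 15.4-fold and 1.55-fold lower on arrays 1, 2 and 3. The mean ratio of Ttr was the lowest of the set, -2.08 ± 1.70 (SD, n = 3; 95% interval -3.58 to -0.59), and it did not pass (limma adjusted p = 0.0645). An exact permutation test of the pool levels of Ttr, which leaves out the pairing on arrays, gave p = 0.1 (two-sided). That is the smallest value that 3 pools against 3 allow, and it follows from the lack of overlap, so it adds no evidence. Without replicate 2 the mean for Ttr was -1.15 and passed (limma adjusted p = 0.0378).

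Enpp2, a secreted lysophospholipase known as autotaxin, was the other very bright member, with log2 levels of 14.05, 13.07 and 15.14 in the older and 15.21, 15.45 and 15.55 in the young pools. Its ratios were -1.16, -2.38 and -0.41, with a mean of -1.32 ± 0.99 (SD, n = 3), and it did not pass (limma adjusted p = 0.0555). The older pools of Enpp2 did not overlap the young ones, and their range of 2.07 compares with 0.34 in the young pools. Sostdc1, a secreted inhibitor of BMP and Wnt signalling, fell by 1.24 on the log2 scale (-0.91, -2.13 and -0.67; SD 0.78; limma adjusted p = 0.0389). Its older pools were at 9.17, 8.36 and 9.62 and its young pools at 10.09, 10.49 and 10.29, without overlap. Wfikkn2, a secreted protease inhibitor that binds myostatin, fell by 0.44 (-0.31, -0.77 and -0.25; SD 0.29; limma adjusted p = 0.0472). For Wfikkn2 older pool 3, at 7.39, lay above young pool 1, at 7.28.

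The other secreted members did not pass and shared the order of the arrays, with array 2 lowest and array 3 nearest to 0. Kl, the klotho protein that acts as a co-receptor and is shed into the fluid, had ratios of -0.90, -1.75 and -0.33 (limma adjusted p = 0.0514). The insulin-like growth factor binding protein Igfbp2, the lipopolysaccharide binding protein Lbp and coagulation factor F5 had means of -0.68, -0.71 and -0.60 (limma adjusted p = 0.0814, 0.0874 and 0.0694). A dimmer F5 probe spans a splice junction, since its 60 bases cover 2189 bases of the genome (mm9, the build named in the array files; chr1:166139728-166141916, plus strand). Its ratios of -0.65, -0.81 and -0.68 had an SD of 0.09, and this probe passed (limma adjusted p = 0.0124), but it was above background in Cy3, the dye of the older pools, on only 1 of 3 arrays. It is shown because its call differs from that of the brighter probe.
F5: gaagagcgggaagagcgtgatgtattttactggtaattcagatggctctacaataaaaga

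The largest role group was the 13 channels, transporters and proteins of fluid secretion, of which 5 fell and 8 did not pass, with a list median of -0.86. Kcnj13, an inward-rectifier potassium channel of the apical membrane, fell by 1.41 (limma adjusted p = 0.0478), 2.66-fold. Its log2 levels were 8.97, 8.36 and 10.42 in the older and 10.31, 10.80 and 10.88 in the young pools. Older pool 3 of Kcnj13 lay within the range of the young pools and the other older pools lay far below it, as the ratios of -1.34, -2.44 and -0.46 show. A neighbouring Kcnj13 probe had a mean of -1.42 and did not pass (limma adjusted p = 0.0727), with ratios of -1.26, -2.71 and -0.29. The sequence of this neighbour (chr1:89282991-89283050 in mm9, minus strand) is shown because nearly equal means at nearly the same brightness fell on opposite sides of the threshold.
Kcnj13: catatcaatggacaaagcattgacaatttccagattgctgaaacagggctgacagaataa

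Aqp1, the water channel of the apical membrane, was at 8.33, 7.46 and 9.28 in the older pools and at 9.28, 9.87 and 9.68 in the young pools. Its ratios were -0.95, -2.41 and -0.40 (mean -1.25, SD 1.04), and Aqp1 did not pass (limma adjusted p = 0.0678). Older pool 3 and young pool 1 of Aqp1 could not be separated, at 9.28 each. The transporters and channels that fell beside Kcnj13 were Steap1, Trpv4, Trpm3 and Slc4a5. Steap1, a membrane protein of a family of metalloreductases, had ratios of -0.86, -1.92 and -0.54 (mean -1.10, SD 0.72; limma adjusted p = 0.0416). Trpv4, a cation channel gated by osmotic stretch, had ratios of -0.82, -1.46 and -0.35 (mean -0.88, SD 0.56; limma adjusted p = 0.0404). Slc4a5, a sodium bicarbonate cotransporter, had ratios of -0.67, -1.02 and -0.25 (mean -0.65, SD 0.39; limma adjusted p = 0.0369). The older pools of Steap1 and Slc4a5 lay below all young pools, and those of Trpv4 overlapped them through older pool 3 at 9.18.

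Trpm3, a cation channel of neurons and of this epithelium whose intron holds a microRNA gene, gave unlike values on its probes. The brightest probe fell by 0.82 (-0.74, -1.37 and -0.35; SD 0.51; limma adjusted p = 0.0390), and its older pools of 7.20, 7.01 and 7.65 lay below its young pools of 7.94, 8.38 and 8.01. A downstream probe of nearly the same brightness had ratios of -0.11, 0.02 and -0.33 (mean -0.14; limma adjusted p = 0.216), and the dimmest Trpm3 probe had a mean of -0.25 (limma adjusted p = 0.111). On array 2 the downstream probe was level and the brightest probe was at its lowest. The sequences of the brightest probe (chr19:22841152-22841211 in mm9, plus strand) and of the downstream probe (chr19:23000491-23000550, plus strand) are shown because they measure different stretches of the gene. The array files assign these probes to different RefSeq transcripts.
Trpm3 brightest probe: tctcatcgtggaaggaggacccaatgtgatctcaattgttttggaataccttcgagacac
Trpm3 downstream probe: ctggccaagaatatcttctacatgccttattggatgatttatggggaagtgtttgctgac

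Of the transporters that did not pass, Clic6, an intracellular chloride channel protein, had ratios of -0.80, -2.26 and -0.41. Folr1, the receptor that carries folate across the epithelium, had -0.60, -1.93 and -0.33, and Slc13a4, a sulfate transporter, had a mean of -0.86. Their limma adjusted p-values were 0.0701, 0.0805 and 0.0660. Car12, a carbonic anhydrase at the cell surface, had a mean of -0.35 with an adjusted p of 0.0517 (limma), although its signal was bright at an average log2 intensity of 11.7.

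The remaining members of this group were nearly level, or moved apart from the set, and all of them were dim. Slco1a5, a transporter of organic anions, had ratios of 0.06, 0.08 and -0.17 (mean -0.01, SD 0.14; 95% interval -0.17 to 0.15). Abca4, a lipid transporter best known from photoreceptors, had ratios of -0.05, -0.35 and -0.11 (mean -0.17; limma adjusted p = 0.131). Its other probe crosses a splice junction (chr3:121873884-121876698 in mm9, plus strand) and had a mean of -0.26 (limma adjusted p = 0.0444). The junction probe was above background in Cy3 on only 1 of 3 arrays, and it is shown as the only probe of Abca4 that passed.
Abca4: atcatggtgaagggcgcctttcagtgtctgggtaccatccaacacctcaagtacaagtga

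Kcne2, a potassium channel subunit of the apical membrane, was the only member with a mean above 0. Its ratios were -0.53, 0.34 and 3.18 (mean 1.00, SD 1.94), and it did not pass (limma adjusted p = 0.327). The log2 levels of Kcne2 were 7.58, 6.52 and 9.02 in the older pools and 8.11, 6.18 and 5.84 in the young pools. Its raw signal over background was 71.3, 21.9 and 331 intensity units in Cy3 and 322, 15.0 and 20.6 in Cy5, and the spot was well above background in Cy5 on 1 of 3 arrays. Without replicate 3 the mean of Kcne2 was -0.10. Because of this gene, relations across the members are given without it as well, a choice made after its values were seen.

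Of the 3 measured junction proteins and keratins, 1 fell and 2 did not pass. Krt18, a keratin of simple epithelia, fell by 1.08 (-0.90, -1.82 and -0.51; SD 0.67; limma adjusted p = 0.0384). Its older pools were at 8.35, 7.84 and 9.06, and all of its young pools were higher, at 9.25, 9.66 and 9.58. Krt8, the partner of Krt18 in keratin filaments, had a mean of -0.58 and did not pass (limma adjusted p = 0.0587), again with no overlap of the pools. Cldn2, a claudin of leaky tight junctions, had a mean of -0.60 (limma adjusted p = 0.0575), and its spot was above background in Cy3 on 2 of 3 arrays.

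Of the receptors and membrane enzymes, Ace, the angiotensin-converting enzyme, had the lowest limma adjusted p of the set at 0.0172. Its ratios were -0.70, -0.96 and -0.48 (mean -0.71, SD 0.24), and its older pools of 7.75, 7.71 and 8.14 lay below its young pools of 8.46, 8.66 and 8.62. The size of this difference ranked near the middle of the set. Prlr, the prolactin receptor, had a larger mean of -0.94 (-0.83, -1.79 and -0.20) and did not pass (limma adjusted p = 0.0721). A dimmer Prlr probe had a mean of -0.37 and passed (limma adjusted p = 0.0345). Mfrp itself was not measured, but RefSeq gives it and C1qtnf5 the same span of 7418 bases (chr9:44101770-44109187, GRCm38.p6). The probe named C1qtnf5, which encodes a secreted protein and is no member, had ratios of -0.61, -1.06 and -0.48 (mean -0.72, SD 0.30; limma adjusted p = 0.0214).

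In the last group of 5 members, Msx1 and Cab39l fell and the other 3 did not pass. Msx1, a homeobox transcription factor, fell by 0.58 (-0.40, -0.85 and -0.49; SD 0.24; limma adjusted p = 0.0222), with older pools of 8.34, 8.12 and 8.47 against young pools of 8.74, 8.97 and 8.96. Cab39l, an adaptor of the kinase Stk11, fell by 0.57 (-0.52, -0.83 and -0.35; SD 0.25; limma adjusted p = 0.0235), with older pools of 10.60, 10.43 and 10.89 against young pools of 11.11, 11.27 and 11.24. The pools of both genes did not overlap, and both differences were among the smaller ones. The dimmer Cab39l probes, above background in both dyes on all 3 arrays, had means of -0.43 and -0.20. They did not pass (limma adjusted p = 0.0594 and 0.117). Otx2, the homeobox factor needed to form and maintain this epithelium, had ratios of -0.62, -2.02 and -0.11 (mean -0.92; limma adjusted p = 0.117). Its second probe, which was dimmer, had a mean of -0.20 (limma adjusted p = 0.254).

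The membrane protein Tmem72 had a mean of -0.41 (limma adjusted p = 0.101). Calml4, a calmodulin-like protein, had ratios of -0.40, -1.42 and -0.30 (limma adjusted p = 0.0792), from a probe that crosses a splice junction (chr9:62719231-62723312 in mm9, plus strand). Its sequence is shown because the gene rests on this probe alone.
Calml4: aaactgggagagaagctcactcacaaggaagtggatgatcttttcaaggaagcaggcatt

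The spread of the ratios lay on the side of the older pools. The median SD of the members' log2 levels was 0.64 over the older and 0.24 over the young pools, and the SD was larger in the older pools for 29 of 31 members. Over all genes the same medians were 0.072 and 0.057, and the SD was larger in the older pools for 10167 of 16783. Older pool 2 was the lowest older pool for 30 of 31 members and older pool 3 the highest for 30 of 31. Over all 16783 genes these counts were 4991 and 5794. For the other choroid plexus genes described below they were 29 and 33 of 39, and for leptomeningeal markers 11 and 9 of 11. The median SD was 0.21 over older and 0.11 over young pools for the former, and 0.32 and 0.18 for the latter. Older pool 2 was lowest for 7 of 8 ependymal and 5 of 6 oligodendrocyte markers, but older pool 3 was highest for 0 in both. For hippocampal neuron markers the counts were 1 and 1 of 10. The summed linear level of the 31 members ran from 27010 to 121981 intensity units in the older pools and from 132784 to 179366 in the young pools. Ttr and Enpp2, the brightest members, weigh most in this sum, and neither passed. Over all genes the sums, 47507000 to 47584500 in the older and 48697900 to 49136300 in the young pools, did not overlap either.

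Older pools 1 and 2 both lay below all young pools for 29 of 31 members, against 31.4% of all genes. Older pool 3 did so for 12 of 31, against 7191 of all 16783 genes. All older pools lay below all young pools for 11 of 31 members, against 26.5% of all genes, and above them for 0 of 31, against 16.3%. The share of non-overlapping members was therefore not far from that of all genes, while the share with pools 1 and 2 below was high. These 11 members and the 11 that fell are different lists of equal size, since Ttr, Enpp2 and Krt8 did not overlap and did not pass, and Kcnj13, Trpv4 and Wfikkn2 passed with overlap.

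**Figure D2:**
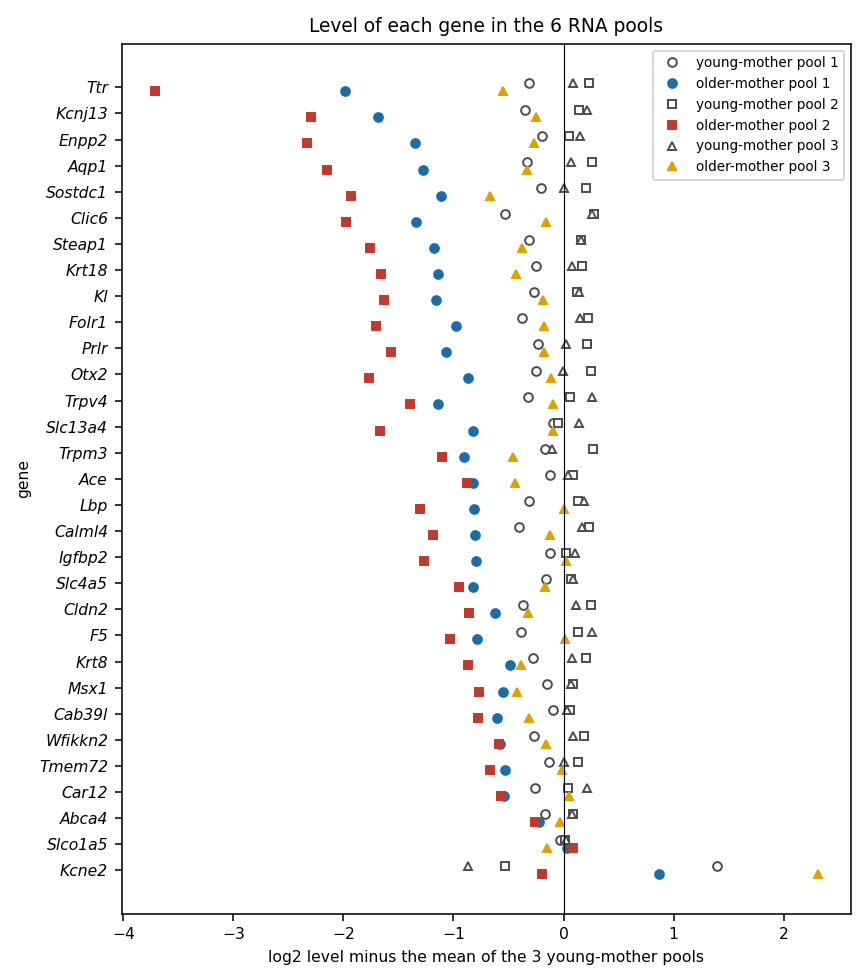
The log2 level of each of the 31 measured genes (rows) in the 3 older (filled) and 3 young (open) pools, minus the mean of the young pools (x axis); pools of 1 array share a shape. The young pools have a median range of 0.46 (2.26 for Kcne2), while for most genes older pool 2 is farthest to the left and older pool 3 is nearest to the young pools.

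Most members were lower on array 2 than on array 1, in much the same order, and their order on array 3 was less alike. Array 2 was lowest and array 3 highest for 25 of 31 members, against 13.1% of all genes. Across the 30 members without Kcne2, the slope of array 2 on array 1 was 1.93 (SE 0.17; r = 0.91). The slope of array 3 on array 1 was 0.24 (SE 0.07; r = 0.55), and that of array 2 on array 3 was 2.62 (SE 0.76; r = 0.54). With Kcne2 these slopes were 1.98, 0.35 and 0.65 (r = 0.86, 0.19 and 0.50), and without both Kcne2 and Ttr they were 1.75, 0.22 and 1.85, so that the slope of array 2 on array 3 rests on single genes. From Agilent's processed signals the slope of array 3 on array 1 over the 31 members was 0.0036, and under median centring it was 0.65. For 16752 genes outside the set the slopes were 0.68, 0.58 and 0.72. For the 39 other choroid plexus genes described below they were 1.38, 0.20 and 0.92 (SE 0.21, 0.20 and 0.20). These are descriptions across genes that share arrays and dyes, and genes are not independent replicates.

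**Figure D3:**
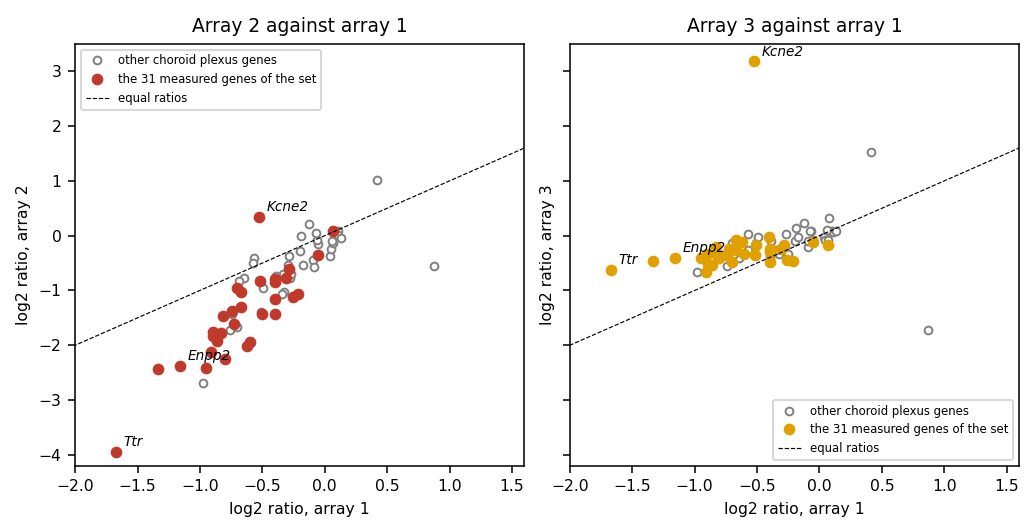
Log2 ratios of array 2 (left) and array 3 (right) on the y axis against array 1 on the x axis, for the 31 measured genes (filled) and 39 other choroid plexus genes (open); the dashed line marks equal ratios. On the left most members lie below the line, with a slope of 1.93 without Kcne2, and on the right they form a flatter band with a slope of 0.24.

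Brighter members had lower ratios under the offset of 50. The correlation of the mean ratio with the average log2 intensity was -0.62 over the 31 members, -0.65 without Kcne2 and -0.49 without Kcne2 and Ttr, against 0.07 over the genes outside the set. Over the 39 other choroid plexus genes it was 0.12. With the 30 members other than Kcne2 split into 3 groups of 10 by brightness, the brightest had medians of -0.76, -1.84 and -0.34 on arrays 1, 2 and 3. The middle group had -0.72, -1.62 and -0.32, and the dimmest -0.36, -0.99 and -0.30. Of the brightest 10 members 2 fell, of the middle 10 4 and of the dimmest 10 5, while the median SD over arrays went from 0.79 to 0.66 to 0.39.

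The offset draws the ratios of dim spots towards 0, and a smaller one widened the dim group. With an offset of 16 the dimmest 10 members had medians of -0.48, -1.19 and -0.36, and with Agilent's processed signals, which carry no such offset, -0.74, -1.59 and -0.36. The brightest 10 had -0.82, -2.05 and -0.35 on the processed signals. The middle 10 had -0.85, -2.16 and -0.36 there, so that the brightest were not the lowest group. On array 3 the groups hardly differed under any of the 3 settings.

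**Figure D4:**
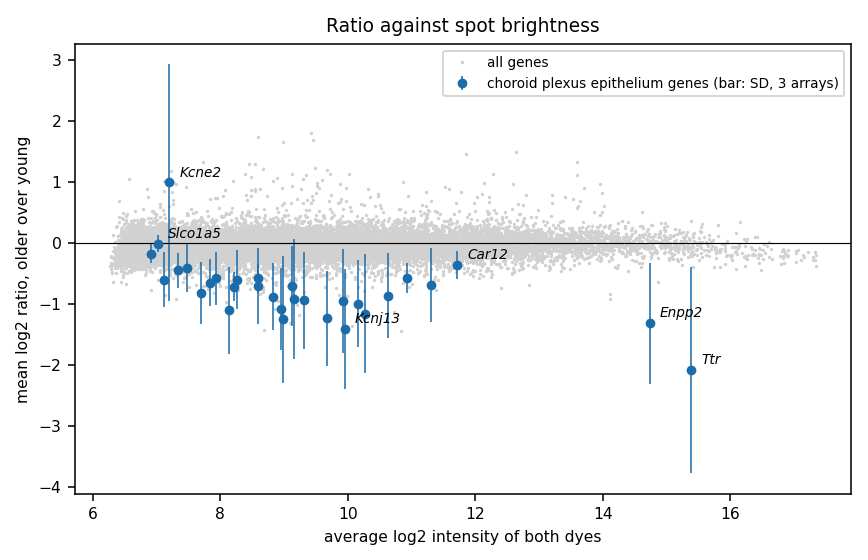
Mean log2 ratio of older over young (y axis) against the average log2 intensity of both dyes (x axis) for the members (blue, bars are the SD of 3 arrays) and all genes (grey). Dim members are spread from 1.00 for Kcne2 to -1.10 for Steap1, Ttr at the right lies at -2.08, and the bulk of all genes lies around 0.

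For 15 members more than 1 probe was kept. The brightest probe had the mean farthest below 0 in 10 of the 15. All kept probes passed for 2 of them, Sostdc1 and Trpv4. The brightest probe passed and another did not for 5 genes, Kcnj13, Slc4a5, Cab39l, Trpm3 and Wfikkn2. The second probes of Slc4a5 and Wfikkn2 had means of -0.35 and -0.17 (limma adjusted p = 0.0636 and 0.111). The brightest did not pass while another did for 4, namely Folr1, Prlr, F5 and Abca4. Of the probes that passed there, that of Folr1 was above background in Cy3 on 0 of 3 arrays and those of F5 and Abca4 on 1 of 3, so that their ratios rest on older-pool signals near background. All kept probes had a mean below 0 for 30 of the 31 measured members.

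Since Otx2 is a member, the RefSeq promoters (GRCm38.p6, 250 bases before to 50 after the start) were searched for TAATCC, the core that Otx2 is known to bind, on both strands. Of the members 27 had 38 promoters in the table. The letters stood in 4 of these 38 (10.53%), those of Ace, Otx2, Abca4 and Mfrp, and in 7.06% of 32851 promoters. A match describes letters and no site. The promoters of Ace, the member with the lowest adjusted p (chr11:105967698-105967997, plus strand), and of Otx2 itself (chr14:48665060-48665359, minus strand) are shown with the match, or its reverse complement GGATTA, in capitals. In Ace the match begins 27 bases before the start and in Otx2 211 bases before it.
Ace promoter: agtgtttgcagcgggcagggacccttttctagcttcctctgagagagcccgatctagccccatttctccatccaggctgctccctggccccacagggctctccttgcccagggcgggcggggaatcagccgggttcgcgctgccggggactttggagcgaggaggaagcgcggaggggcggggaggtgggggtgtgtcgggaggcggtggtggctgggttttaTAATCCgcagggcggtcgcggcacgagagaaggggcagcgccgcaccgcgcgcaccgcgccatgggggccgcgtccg
Otx2 promoter: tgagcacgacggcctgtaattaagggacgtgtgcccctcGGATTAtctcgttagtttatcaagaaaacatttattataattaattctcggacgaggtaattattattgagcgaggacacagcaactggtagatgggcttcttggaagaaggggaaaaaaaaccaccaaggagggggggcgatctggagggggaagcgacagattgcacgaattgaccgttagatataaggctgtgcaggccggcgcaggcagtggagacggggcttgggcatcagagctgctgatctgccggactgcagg

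A further list of 40 genes used by this epithelium, many of them also active in other brain cells, was read beside the set. Of 39 measured, 7 fell, 1 rose and 31 did not pass, and the medians were -0.25, -0.53 and -0.10 on arrays 1, 2 and 3. The 6 with the smallest p all fell. They were the nucleoside transporter Slc28a3 (-0.61), the serotonin receptor Htr2c (-0.62), the efflux transporter Abcc4 (-0.41), the anion exchanger Slc4a2 (-0.37), Prr32 (-0.91) and the collagen Col8a1 (-0.28), with limma adjusted p-values of 0.0163 to 0.0306. In Cy3 Slc28a3 and Prr32 were above background on 2 and Col8a1 on 1 of 3 arrays.

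Markers of other tissue that can come with a hippocampus gave the following values, and their part in the result was not tested. Of 11 measured leptomeningeal fibroblast markers 7 fell and 0 rose, with medians of -0.39, -0.58 and -0.26. These medians had the same order of arrays in a narrower range, and gene by gene 6 of the 11 had that order. Ogn and Fmod, small proteoglycans of the matrix, had the smallest p of them, at -0.40 and -0.36 (limma adjusted p = 0.0180 and 0.0181). Their order was another, with ratios of -0.29, -0.46 and -0.46 for Ogn and -0.30, -0.33 and -0.44 for Fmod. The summed level of the 11 was 7549 to 11845 in the older and 10230 to 12517 in the young pools. Ependymal markers, from the ciliated cells that line the ventricles, had 0 of 8 measured genes called in either direction (limma), 1 lower at an unadjusted limma p under 0.05, and medians of 0.29, -0.37 and -0.11. Their smallest p-values were those of Dnah12, whose Cy3 signal was well above background on 0 of 3 arrays, and of Rsph1, at -0.38, and their summed level was 3803 to 5385 in the older and 4289 to 5154 in the young pools.

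Vessel markers showed a mixture. Of 8 endothelial markers 3 fell and 1 rose, with Flt1 at 0.38 and Cldn5 at -0.63 as the smallest p, and a summed level of 12837 to 13144 in the older and 11668 to 14003 in the young pools. Of 6 mural markers 3 fell, with Acta2 at -0.40 and Pdgfrb at -0.52, and their summed level was 4579 to 5761 in the older and 5314 to 6757 in the young pools. Of 4 measured red blood cell markers Hbb-b1 fell by 0.32 and Slc4a1, at 0.17, did not pass. The medians of these lists lay between -0.31 and 0.05 on all arrays.

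Of the tissue named in the labels, 10 of 10 hippocampal neuron markers were measured, with medians between -0.03 and 0.00 and summed levels of 33882 to 37096 in the older and 33025 to 35782 in the young pools. Of the 10, 1 fell and 2 rose, with Neurod6 at -0.34 and Calb1 at 0.24 as the smallest p. Of 7 measured markers of the neighbouring thalamus and habenula 1 fell and 2 rose, led by Rgs16 at 0.36 and Plekhg1 at 0.32, the latter above background in Cy5 on 1 of 3 arrays. Glial lists held few called genes. Of 6 astrocyte markers Gfap rose by 0.48 and Aldh1l1, at -0.13, did not pass. Of 6 measured microglia and border macrophage markers Cx3cr1 fell by 0.46 and Aif1, at -0.13, did not pass. Of 6 oligodendrocyte markers 0 were called (limma; 0 lower at an unadjusted p under 0.05), among them Mbp at -0.12. Oligodendrocyte medians of 0.23, -0.17 and 0.05 put array 1 on the other side of 0 from array 2, as the ependymal medians did.

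**Figure D5:**
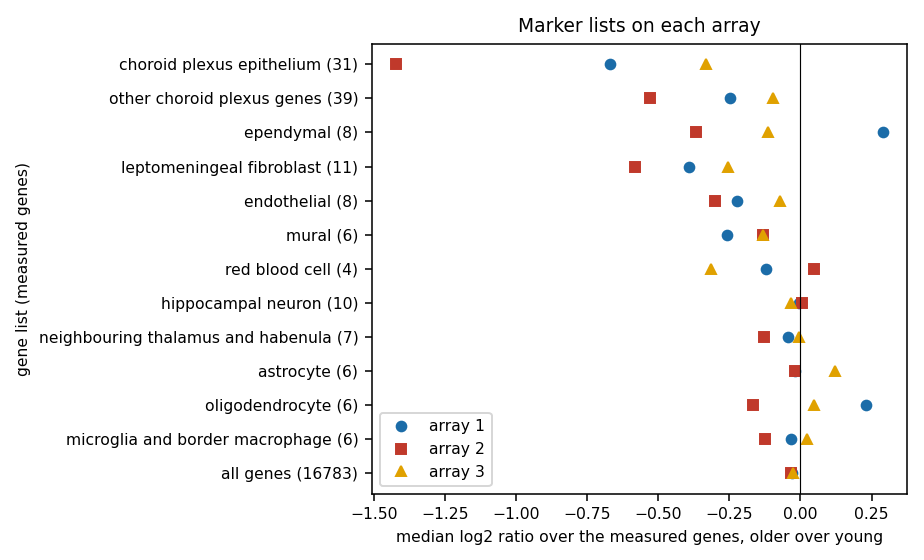
Median log2 ratio of older over young (x axis) on arrays 1, 2 and 3 (points) for each gene list (rows, with the number of genes measured). The set reaches -1.42 on array 2, array 2 is also lowest and array 3 highest for the other choroid plexus genes and for the leptomeningeal, endothelial, thalamus and microglia lists, within narrower ranges, and all genes lie at -0.03.

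The genes outside both choroid plexus lists whose 3 ratios lay nearest to the members' medians, by Euclidean distance over the 3 arrays, were Smim22, Cox8b, Cdkn1c, Fap, Mdfic, Sfrp5, Col8a2 and Tmprss11a, at distances of 0.042 to 0.314. Smim22, a small membrane protein, had ratios of -0.69, -1.41 and -0.37. Their means ran from -0.72 for Col8a2 to -0.82 for Smim22. They were found by this likeness, so that their values describe the search and carry no test.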

How the data were processed

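Per the file headers, Agilent Feature Extraction 10.10.1.1 made the scanner files. They hold raw and processed signals as intensity values, and flags of another (other) kind, 0 or 1, for spots above background, per the file headers. The values of the deposited table are log2 Cy3 over Cy5 ratios, with steps not given in the sources used here; normexp with an offset of 50 and loess on median signals gave the same values within 5e-10. Here, limma 3.58.1 in R 4.3.3 (jsonlite 2.0.0) corrected mean signals by normexp with offset 50, then by loess (span 0.3), with control spots at weight 0. Of 39429 probes, 27631 were kept, as above background on all 3 arrays in at least 1 dye. Ratios were fitted with an intercept (lmFit, eBayes; 2 residual and 3.42 prior degrees of freedom), with Benjamini-Hochberg adjustment over the kept probes, of which 2946 were lower and 2189 higher in older pools; under median centring 17010 were lower and 5997 higher. Pool levels are log2 channel values after loess and Aquantile. On the 3 arrays 64.6% to 66.7% of spots were above background in Cy3 and 71.0% to 74.9% in Cy5, and 0 were saturated; the number of arrays limits the precision. On simulated signals of 27631 probes, 95 of 100 log2 changes of -0.5 and 100 of 100 of -1 were called, with 3 false calls. The median estimates were -0.43 and -0.82. All simulated probes had the same noise, at the median SD of the kept probes, and the same change on every array. The SD over arrays of the members ran from 0.14 for Slco1a5 to 1.94 for Kcne2, so these counts do not apply to them.

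Full values were given for Ttr, members that passed, the 4 lowest and 2 highest means and any unlike sign; for other lists, the 6 or 2 smallest p; and the 8 nearest profiles. A gene that this rule names is not reported here. C1qtnf5 and further members were named after their values were seen. The members and lists were chosen with earlier results of these data known. Alternatives were the deposited table, uncorrected background, median centring, processed signals, an offset of 16, other filters, a robust fit with a variance trend, a separate-channel fit, probe means per gene, and fits without each replicate.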

Additional observations from a re-analysis of the deposited data

How the results depend on the processing

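Each array sets 1 older pool against 1 young pool, so the ratio fit is a paired one. Counts of members that fell, 11 as reported, were 0 from Agilent's processed signals (14 at an unadjusted limma p under 0.05), 3 with an offset of 16, 28 (and 1 that rose) under median centring and 3 with a variance trend and robust settings. Over the leave-one-out fits they ran from 0 (28 at an unadjusted limma p under 0.05) to 13. The count of 0 was that without replicate 3. At the unadjusted threshold 9868 of all 27631 probes passed from processed signals and 8423 without replicate 3, in either direction. The 3 left under the offset of 16 and under the variance trend were the same genes, Cab39l, Ace and Msx1. Under median centring all genes had a median of -0.42, and relative to it the members' median was -0.73, against -0.68 as reported. The members' median kept its direction under all alternatives run. Of the other choroid plexus genes 3 fell from processed signals, 14 with no background correction, 32 (3 rose, median -0.77) under median centring, 4 under a stricter filter and 0 to 5 in leave-one-out fits, with 0 to 1 rising. Probes lower and higher were 1452 and 1169 from processed signals, 17010 and 5997 under median centring, and 0 to 1906 and 29 to 1459 in leave-one-out fits. The slope of array 2 on array 1 was 1.49 from processed signals, that of array 3 on array 1 was 0.0036 from processed signals and 0.65 under median centring, and that of array 2 on array 3 was 1.04 under median centring, 2.62 without Kcne2 and 2.71 under the stricter filter, which also leaves out Kcne2. Slco1a5 turned to 0.0020 from processed signals, 0.16 under median centring and -0.051 to 0.071 in leave-one-out fits (0.071 without replicate 3), and Abca4 to 0.055 under median centring. Kcne2 ran from -0.10 (without replicate 3) to 1.76 in leave-one-out fits. Of the other single-gene values 309 kept direction and side of the threshold, 53 lost the call and 34 gained it. The cause of these shifts was not tested. Kcne2, above background in Cy5 on 1 of 3 arrays, and Cldn2, in Cy3 on 2 of 3, have the least support from signal over background, and 1 dye orientation on 3 arrays limits all values.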

Other observations

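Some choroid plexus genes outside the set did not follow the order of the arrays. Baiap2l1, an adaptor of the actin cytoskeleton in epithelia, rose in the older pools, by 0.42, 1.02 and 1.53 on the log2 scale on arrays 1, 2 and 3 (mean 0.99, SD 0.56; limma adjusted p = 0.0317). Its log2 levels were 7.09, 7.73 and 8.31 in the older pools and 6.68, 6.72 and 6.78 in the young pools, so that here too the young pools lay close together. Slc4a10, a sodium bicarbonate transporter of this epithelium and of neurons, had ratios of 0.87, -0.56 and -1.72 (mean -0.47; limma adjusted p = 0.486). For Slc4a10 the young pools carried the spread, at 9.13, 10.45 and 11.25, against 10.01, 9.90 and 9.53 in the older pools. Ecrg4, a secreted peptide precursor of the choroid plexus, followed the set, with ratios of -0.98, -2.69 and -0.66, and did not pass (limma adjusted p = 0.0554). These genes were named after their values were seen.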
